A study of Mus musculus with 4 samples.

Results

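Complement is a cascade of plasma and tissue proteins that coats microbes and damaged cells and recruits phagocytes. The liver makes most of the plasma pool, and epithelial cells, fibroblasts and macrophages of the lung make part of the local supply. The 9 genes described here, of 23740 named genes on the arrays, encode the central components C3 and C4 (C3, C4b), the proteases of the C3 convertases (C2, Cfb), C5 and C6 of the terminal pathway (Hc, C6) and 3 regulators (Cfi, Cd55, Serping1). They were taken by gene symbol, C1q was not included, and each had 1 probe set.

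Affymetrix arrays were used to profile RNA of 4 mouse cell populations, 1 array each, in a study of interrupted reprogramming, in which reprogramming factors are switched on only for a limited time. The iPS population consisted of induced pluripotent stem cells derived from club cells, the secretory cells of the airway lining. The other populations form a time course: club cells of adult lung directly after isolation (Day0), such cells grown for 3 weeks with doxycycline (3w+Dox, called Club-iPL in the labels), and the same kind of culture after 2 further weeks without doxycycline (3w+Dox+2w-Dox, called withdrawn cells here). Doxycycline is the drug that turns on tetracycline-controlled transgenes. The labels give adult lung as the source of all 4 populations and name no strain, allele, transgene, promoter or cell sort, and a culture kept without doxycycline throughout was not analysed here, so drug and time in culture cannot be told apart.

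Signals are log2 values made by the authors with RMA, a method that corrects background, equalises the distributions of the arrays and gives 1 value per probe set. The array medians lay between 6.60 and 6.74. Genes count as higher or lower where 2 arrays differ by 2 log2 units (4-fold) or more and at least 1 of them reaches 6.67, the median over the whole table. Single arrays leave every difference without a replicate check or a p-value, and a signal under that median may be mostly background, so a fold that rests on one is not exact. The club cell marker Scgb1a1 read 4.18 in iPS cells, 13.52 at Day0, 12.62 at 3w+Dox and 13.04 in withdrawn cells, and the pluripotency factor Nanog read 12.87, 6.27, 5.83 and 5.96 in the same order. Alb, which encodes albumin and marks hepatocytes, read 5.53, 6.95, 5.80 and 5.50 in that order.

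Promoter windows, from 250 bases before to 50 after the annotated start, were in the RefSeq table (GRCm38.p6) for 4 of the 9 genes, C3, C6, Hc and Cd55. Those of C3 and C6 are shown because C3 is the protein on which all activation routes meet and C6 had the largest difference of the 9 genes. The C3 window is chr17:57228087-57228386 on the minus strand and the C6 window is chr15:4726960-4727259 on the plus strand, each written 5′ to 3′ in the direction of the gene. Capitals mark the match to TTGCNNAA, the core of the C/EBP binding motif.
C3: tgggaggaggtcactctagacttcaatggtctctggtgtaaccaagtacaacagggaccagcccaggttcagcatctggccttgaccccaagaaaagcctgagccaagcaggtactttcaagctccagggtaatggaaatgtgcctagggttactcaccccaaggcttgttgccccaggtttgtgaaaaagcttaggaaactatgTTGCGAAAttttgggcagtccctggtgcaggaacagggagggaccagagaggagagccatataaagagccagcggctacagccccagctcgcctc
C6: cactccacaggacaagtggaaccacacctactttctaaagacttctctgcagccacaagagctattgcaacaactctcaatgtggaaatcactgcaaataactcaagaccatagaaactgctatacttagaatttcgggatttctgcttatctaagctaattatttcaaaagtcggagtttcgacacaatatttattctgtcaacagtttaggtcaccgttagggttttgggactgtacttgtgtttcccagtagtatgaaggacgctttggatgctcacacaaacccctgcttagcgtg

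Both strands of the 4 windows were searched for TTGCNNAA, for TTCNNNGAA (STAT factors), for GGGA and TTTCC with 1 base of any kind between them (NF-kB), for a looser form that also leaves the A open, and for GAAA followed by GAAA with 2 bases between them (interferon response). C/EBP, NF-kB and STAT factors are known regulators of acute phase genes. The search found 1 match, TTGCGAAA in C3, on the strand of the gene with its first base at position -45 from the start. Of all 32851 windows in the table, 10.8% held TTGCNNAA, 8.3% TTCNNNGAA, 0.411% the NF-kB letters, 1.63% their looser form, which includes them, and 3.44% the interferon response letters. The C6, Hc and Cd55 windows held none of these letters. Signals of 2 genes of C/EBP factors ran as follows: Cebpd read 5.86 in iPS cells, 8.88 at Day0, 7.67 at 3w+Dox and 7.96 in withdrawn cells, and Cebpb read 8.06, 9.84, 8.85 and 9.08 in the same order. Both had their highest signal at Day0 and their lowest in iPS cells, an order shared by C3, whose window held a match, and by C6, Hc and Cd55, whose windows held none. A part of these factors in any of the signals was not tested.

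C3 is cleaved by the convertases into the coating fragment C3b and the signalling peptide C3a. Its probe set (Entrez gene 12266) read 8.15 in iPS cells, 12.99 at Day0, 10.64 at 3w+Dox and 10.89 in withdrawn cells. The gene was bright on all 4 arrays, highest in the fresh isolate and lowest in iPS cells, and both cultures lay between. The difference was -2.34 for 3w+Dox minus Day0 (5.08-fold) and -4.83 for iPS minus Day0 (28.5-fold).

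C4b, which encodes the C4 of the classical and lectin routes, varied far less. It read 5.86 in iPS cells, 6.65 at Day0, 7.14 at 3w+Dox and 7.04 in withdrawn cells. The 3 arrays of the time course lay within 0.49 log2 units of each other, close to the median of all values, and no comparison reached 4-fold. C4a, its near-identical neighbour, read 4.35, 4.04, 4.33 and 4.03 in the same order. Probes may not fully separate these copies, so the C4b signal is uncertain.

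C2 and Cfb encode related serine proteases, the catalytic subunits of the classical and the alternative C3 convertase. C2 read 6.37 in iPS cells, 4.77 at Day0, 6.75 at 3w+Dox and 7.21 in withdrawn cells. It was lowest at Day0, where it lay under the 25th percentile of all values (5.07), and was highest in withdrawn cells. The difference of 3w+Dox minus Day0 was 1.98 (3.95-fold), just under the 4-fold threshold, and that of withdrawn cells minus Day0 was 2.44 (5.44-fold). With values under the 25th percentile raised to it, these differences were 1.68 and 2.15.

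Cfb went the other way. It read 6.03 in iPS cells, 7.38 at Day0, 6.35 at 3w+Dox and 6.12 in withdrawn cells. Only the Day0 signal lay above the median of all values, and the difference of 3w+Dox minus Day0 was -1.03 (2.04-fold). C2 and Cfb are next to each other on chromosome 17 in RefSeq's GRCm38.p6, with no protein-coding gene between them, and their differences from Day0 had opposite signs on all 3 other arrays (1.60 and -1.35 in iPS cells, 1.98 and -1.03 at 3w+Dox, 2.44 and -1.26 in withdrawn cells). Of 14 measured genes around C2, Cfb and C4b in the major histocompatibility complex, 0 were at least 4-fold higher and 2 lower in 3w+Dox than in Day0 cells. The shares over all named genes were 4.34% and 2.88%. The median difference of the 14 was -0.11, beside -0.09 over all named genes. The 2 lower ones were the heat shock genes Hspa1a (-2.88) and Hspa1b (-2.45), which are near-identical copies that probes may not separate. Slc44a4, a choline transporter family gene, differed by -3.28 in iPS cells minus Day0.

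**Figure D1:**
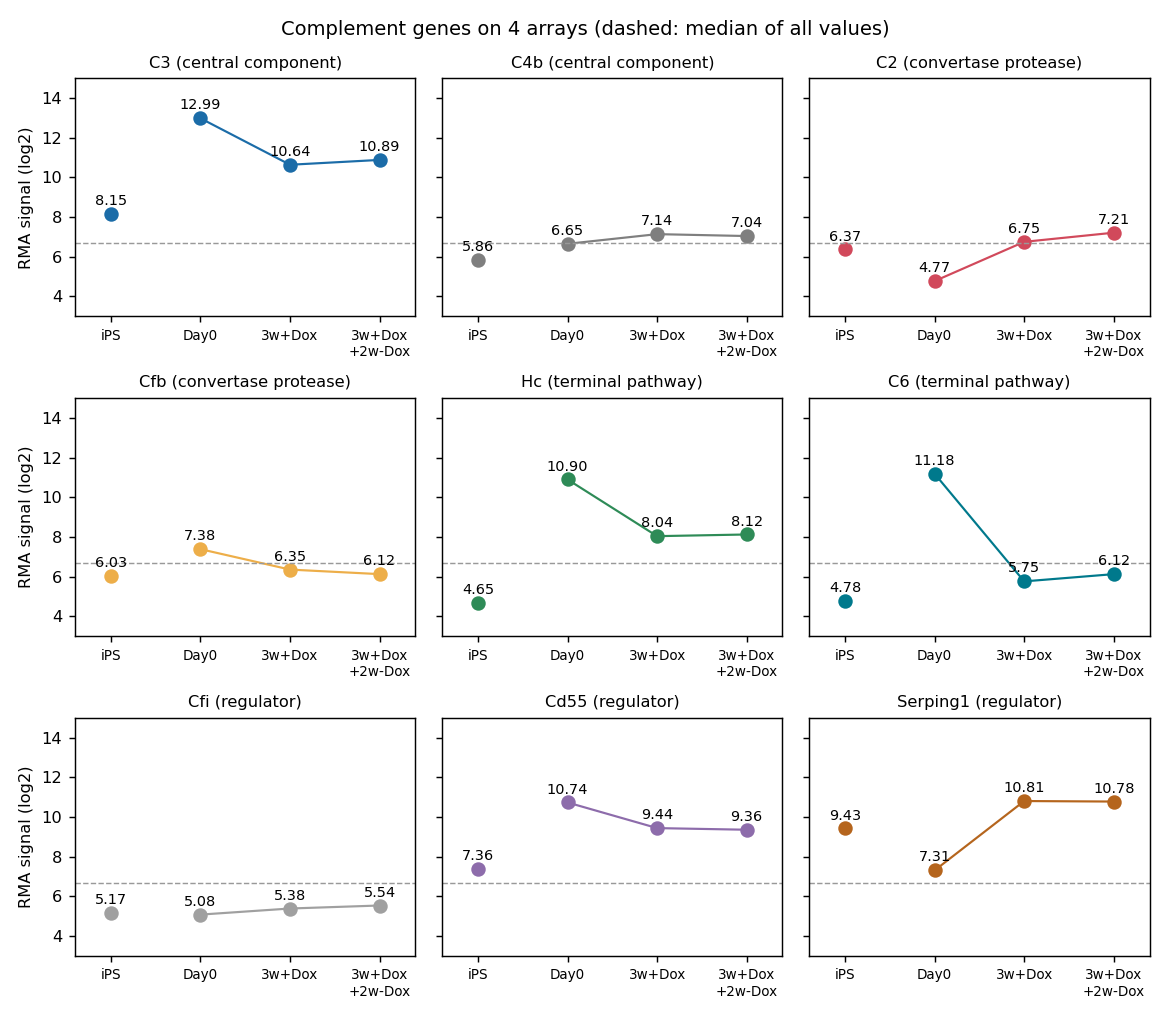
RMA signal (log2) of each complement gene on each array, with 1 point per array, a line joining the time course from Day0 to withdrawn cells, and a dashed line at the median of all values (6.67). C3, C6, Hc, Cfb and Cd55 are highest at Day0, Serping1 and C2 are lowest there, and Cfi lies under the dashed line on all 4 arrays.

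Hc and C6 belong to the terminal pathway, in which C5b binds C6 and further components to build the membrane attack complex. Hc, the mouse gene for C5, read 4.65 in iPS cells, 10.90 at Day0, 8.04 at 3w+Dox and 8.12 in withdrawn cells. It was bright at Day0, intermediate in both cultures, and under the 25th percentile of all values in iPS cells. The difference was -2.86 for 3w+Dox minus Day0 (7.27-fold) and -6.25 for iPS minus Day0 (75.9-fold).

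C6 had the largest differences of the 9 genes from Day0. It read 4.78 in iPS cells, 11.18 at Day0, 5.75 at 3w+Dox and 6.12 in withdrawn cells. Only the Day0 array lay above the median of all values. The difference was -5.43 for 3w+Dox minus Day0 (43.2-fold), -5.07 for withdrawn cells minus Day0 (33.5-fold) and -6.40 for iPS minus Day0 (84.6-fold). The other terminal components measured, C7, C8a, C8b, C8g and C9, read between 4.20 and 7.15 on the 4 arrays. Of these 5 genes 0 were counted as higher or lower in any of the 5 comparisons, where 0.295% to 5.91% of all named genes were, per direction. All but C8g lay under the median of all values on every array, where the rule allows no call, so the 0 says little about them. At 3w+Dox the difference of C6 was 84.8% of its iPS difference and that of Hc was 45.8%, where both percentages share the Day0 array in their terms. C6 at 3w+Dox and both genes in iPS cells lay under the median of all values, so neither percentage is exact.

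The 3 regulators behaved differently from each other. Serping1 encodes the C1 inhibitor, a serpin that blocks the C1r, C1s and MASP proteases. It read 9.43 in iPS cells, 7.31 at Day0, 10.81 at 3w+Dox and 10.78 in withdrawn cells. It was lowest in the fresh isolate and bright in all cultures. The difference was 3.50 for 3w+Dox minus Day0 (11.3-fold), 3.47 for withdrawn cells minus Day0 (11.1-fold) and 2.12 for iPS minus Day0 (4.33-fold).

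Cd55 encodes decay-accelerating factor, a membrane protein that takes apart C3 convertases on the cell's own surface. It read 7.36 in iPS cells, 10.74 at Day0, 9.44 at 3w+Dox and 9.36 in withdrawn cells. Both cultures lay between Day0 and iPS cells, with a difference of -1.29 for 3w+Dox minus Day0 (2.45-fold) and -3.37 for iPS minus Day0 (10.4-fold). Its neighbouring copy Cd55b read 3.97 in iPS cells, 7.41 at Day0, 5.19 at 3w+Dox and 5.42 in withdrawn cells. It too was highest at Day0 and lowest in iPS cells. Probes may not fully separate Cd55 and Cd55b.

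Cfi encodes factor I, the protease that inactivates the cleaved forms of C3 and C4. It read 5.17 in iPS cells, 5.08 at Day0, 5.38 at 3w+Dox and 5.54 in withdrawn cells. All 4 signals lay under the median of all values and within 0.46 log2 units of each other, so no difference in factor I transcript was detectable on these arrays.

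Setting 3w+Dox cells against Day0 asks how cells grown for 3 weeks with doxycycline differed from the fresh isolate. Of the 9 genes, 3 were at least 4-fold lower (C3, Hc and C6) and 1 at least 4-fold higher (Serping1). Over all named genes, 2.88% were lower and 4.34% higher by this rule. The median difference of the 9 genes was -1.03, beside -0.09 over all named genes. By the 2-fold rule 5 were lower, with Cd55 and Cfb, and 2 were higher, with C2, against 7.5% and 8.7% of all named genes.

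Setting withdrawn cells against 3w+Dox cells asks what followed the removal of doxycycline. None of the 9 genes reached 4-fold, with 0 higher and 0 lower, and 0.295% and 0.468% of all named genes did so in those directions. No member reached 2-fold either, where 1.45% of named genes were higher and 1.9% lower. The differences ran from -0.23 for Cfb to 0.46 for C2, inside the central 95% of all named genes (-0.93 to 0.86). C3, Hc and C6 had undone 10.4%, 2.97% and 6.74% of their difference at 3w+Dox, and Serping1 0.737%. Both culture signals of C6 (5.75 and 6.12) lay under the median of all values, so its percentage is not exact. Over the 684 named genes at least 4-fold lower in 3w+Dox than in Day0 cells, the median undone was 24.8% (interquartile range 6.93 to 45.1%), and 129 of them had undone at least 50%. Of the 10 ciliated cell genes among them on the list used here, 7 had undone at least 50%, with a median of 52.2%. The 3w+Dox array enters both terms of each percentage.

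The comparison of withdrawn cells with Day0 asks how far the cells lay from the isolate at the end of the time course. C3, Hc and C6 were at least 4-fold lower (3 of 9) and Serping1 and C2 at least 4-fold higher (2 of 9), beside 1.87% and 4.07% of all named genes. By the 2-fold rule 2 were higher and 5 lower, beside 7.89% and 7.75% of all named genes. The difference of C3 was -2.10 (4.29-fold) and that of Hc -2.78 (6.85-fold). After a second quantile normalization the C3 difference was -1.98, under the 4-fold threshold.

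**Figure D2:**
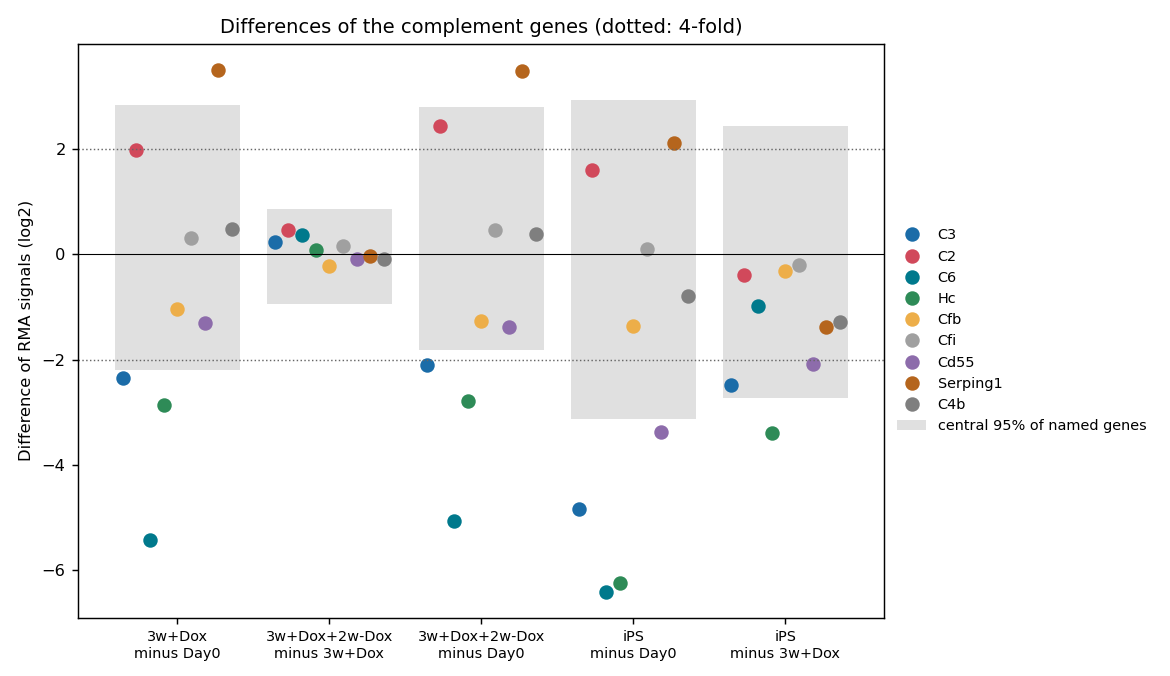
Difference of RMA signals (log2) of the 9 complement genes in 5 comparisons, with 1 point per gene, grey bars for the central 95% of 23740 named genes and dotted lines at 4-fold. C6 lies lowest in the 3 comparisons with Day0, Serping1 highest, and all 9 points lie inside the grey bar for withdrawn cells minus 3w+Dox.

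The comparison of iPS cells with Day0 asks how the pluripotent cells differed from freshly isolated club cells. Of the 9 genes, 4 were at least 4-fold lower (C3, C6, Hc and Cd55) and 1 higher (Serping1), beside 5.91% and 4.95% of all named genes. The median difference was -1.35, beside 0.01 over all named genes. In iPS cells minus 3w+Dox, 3 genes were at least 4-fold lower, beside 5.18% of all named genes, and 0 higher, beside 3.58%. These were Hc at -3.38 (10.4-fold), C3 at -2.49 (5.61-fold) and Cd55 at -2.08 (4.22-fold). After a second quantile normalization Cd55 fell short of the 4-fold threshold, which left 2 genes lower. Serping1 differed by -1.38 (2.61-fold) and C4b by -1.28 (2.43-fold) between these arrays. The comparisons share arrays and are not independent of each other.

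The remaining complement genes on the arrays, 49 measured of 50 listed, differed by role. At 3w+Dox 13 were at least 4-fold higher and 2 lower than at Day0, beside 4.34% and 2.88% of all named genes. The median difference of the 49 was 0.16, beside -0.09 over all named genes. Of 16 initiators, the proteins that recognise targets and start the cascade, 6 were higher and 0 lower. C1qb, a chain of C1q, read 7.27 in iPS cells, 6.30 at Day0, 11.32 at 3w+Dox and 11.33 in withdrawn cells, and C1qa and C1qc differed by 2.80 and 4.15 between 3w+Dox and Day0. C1s1, the C1s protease that the C1 inhibitor blocks, read 6.30, 2.73, 8.67 and 8.16 in the same order, and Masp1, a protease of the lectin route, read 7.59, 4.89, 9.13 and 9.99. Colec12, a scavenger receptor with a collectin domain, read 9.65, 5.51, 11.47 and 12.12. These genes were dim at Day0 and bright in both cultures, as Serping1 was at 3w+Dox and after withdrawal, while C1ra, which encodes C1r, stayed between 5.63 and 7.05 on the 4 arrays.

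Properdin, encoded by Cfp, stabilises the alternative convertase and is made by myeloid cells. Cfp read 7.91 in iPS cells, 6.95 at Day0, 9.77 at 3w+Dox and 9.69 in withdrawn cells. Cfd, the protease factor D, was under the median of all values on all 4 arrays, with 6.14 at 3w+Dox against 6.56 at Day0. Among the other regulators, Cpn1, a subunit of the carboxypeptidase that inactivates C3a and C5a (-2.89), and Cd55b (-2.22) were at least 4-fold lower in 3w+Dox than in Day0 cells. Cpn1 read 8.83 in iPS cells, 9.51 at Day0, 6.63 at 3w+Dox and 7.94 in withdrawn cells, with 45.4% of its difference undone after withdrawal. Clu, which encodes clusterin, read 8.31 in iPS cells, 11.02 at Day0, 12.76 at 3w+Dox and 12.46 in withdrawn cells, so it was lowest in iPS cells (-2.70 minus Day0) and above Day0 in both cultures, by 1.74 and 1.44. Cd46, a cofactor of factor I, differed by -2.43 in iPS cells minus Day0.

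Of 10 receptors for complement components and fragments, 5 were at least 4-fold higher and 0 lower in 3w+Dox than in Day0 cells. The shares over all named genes were 4.34% and 2.88%. C3ar1, the C3a receptor, read 5.93 in iPS cells, 6.36 at Day0, 9.28 at 3w+Dox and 9.85 in withdrawn cells. C5ar1, the main C5a receptor, read 5.50, 4.92, 7.57 and 8.05 in that order. Itgam and Itgb2, the chains of complement receptor CR3 of myeloid cells, differed by 3.73 and 2.36 at 3w+Dox minus Day0, and Cd93 by 2.22. C5ar2, the second C5a receptor, read 6.72, 8.72, 7.28 and 7.16, with its highest signal at Day0 as for Hc. The signals for the ligand genes C3 and Hc and for the receptor genes C3ar1 and C5ar1 thus had opposite order between 3w+Dox and Day0.

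**Figure D3:**
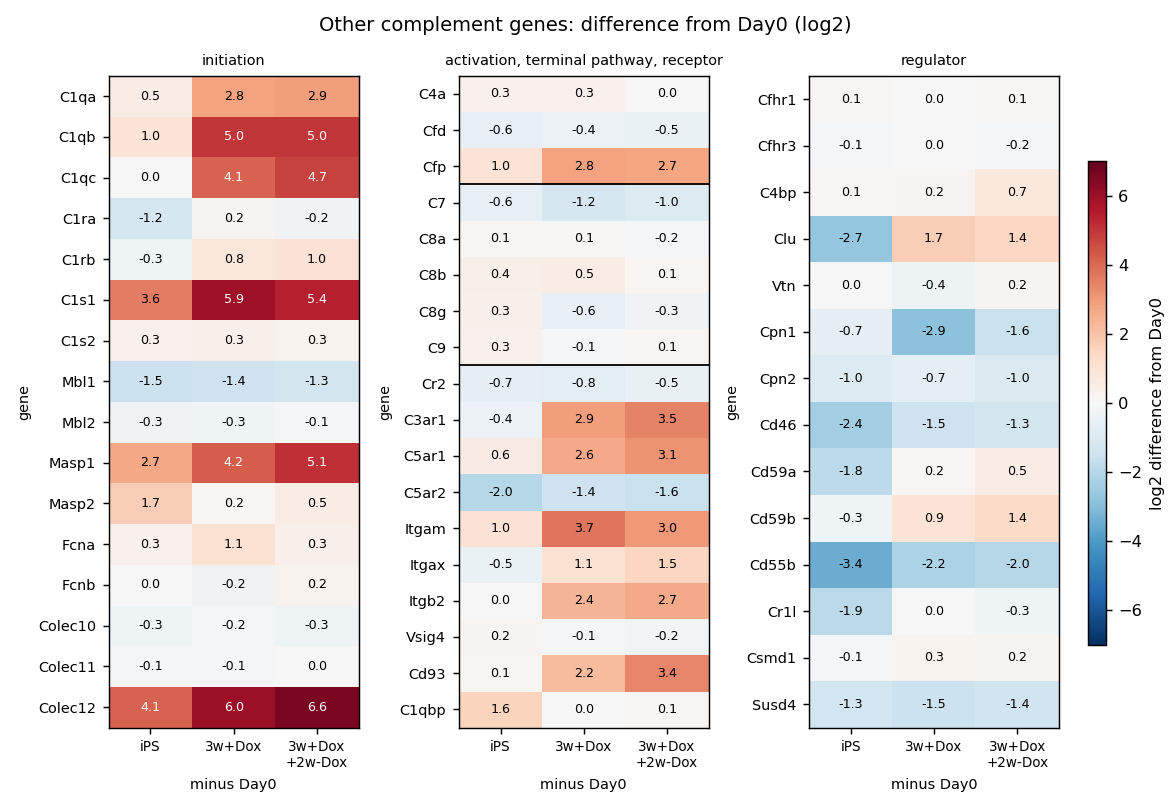
Difference from Day0 (log2) of other complement genes in iPS, 3w+Dox and withdrawn cells, grouped by role, with red for higher and blue for lower than Day0 and black lines between roles. C1q chains, C1s1, Masp1, Colec12, Cfp, C3ar1, C5ar1, Itgam, Itgb2 and Cd93 are red in both cultures, and the terminal components are pale.

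Markers of other cell types differed between the same arrays, and in bulk RNA fewer cells of a type and less RNA per cell cannot be told apart. Of 20 macrophage genes, 13 were at least 4-fold higher and 1 lower in 3w+Dox than in Day0 cells, beside 4.34% and 2.88% of all named genes. By the 2-fold rule 15 were higher and 3 lower, beside 8.7% and 7.5%. The summed linear signal of the list was 4371 in iPS cells, 3725 at Day0, 14602 at 3w+Dox and 21864 in withdrawn cells. The brightest genes weigh most in such a sum. The median log2 signal of the list was 6.11, 6.31, 9.08 and 9.75 in that order. Of the defining ones, Adgre1 read 5.75, 5.72, 9.78 and 9.88 in that order, Csf1r 6.74, 6.83, 9.29 and 8.97, and Ptprc 4.51, 4.70, 7.44 and 7.27. These genes were high on the same 2 arrays as C1q, Cfp, C3ar1, C5ar1 and Itgam. Their part in those differences was not tested.

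Of 18 fibroblast genes, 17 were at least 4-fold higher in 3w+Dox than in Day0 cells and 0 lower, beside 4.34% and 2.88% of all named genes. Their summed linear signal was 11525 in iPS cells, 1378 at Day0, 52052 at 3w+Dox and 52308 in withdrawn cells. Of the defining ones, Col1a1 read 9.76, 6.73, 12.84 and 12.53 in that order and Pdgfra 8.73, 5.64, 10.53 and 10.87. Serping1 and C1s1 had the same order of Day0, iPS and 3w+Dox cells as these genes. The complement genes C1qb, Cfp and C2 had that order too. Of the defining macrophage genes, Csf1r and Ptprc were lower in iPS than in Day0 cells. Adgre1 was nearly equal there (5.75 and 5.72), under the median of all values. The part of fibroblasts in the differences of Serping1 and C1s1 was not tested.

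Epithelial lists differed the other way, where 2.88% of all named genes were at least 4-fold lower and 4.34% higher in 3w+Dox than in Day0 cells. Of 12 club cell genes, 6 were lower by 4-fold or more in 3w+Dox than in Day0 cells and 0 higher, with a summed linear signal of 883 in iPS cells, 97636 at Day0, 41156 at 3w+Dox and 46331 in withdrawn cells. Of 12 ciliated cell genes, 10 were lower and 0 higher, and Foxj1, the defining one, read 8.38, 11.19, 7.99 and 10.45 in that order. Of 12 alveolar type 2 genes, 1 was lower and 0 higher, and Sftpc, which defines these cells, read 5.50, 13.49, 13.39 and 13.54. By the 2-fold rule 5 of these 12, led by Sfta2 (-2.81) and Sftpa1 (-1.94), were lower and 0 higher, beside 7.5% and 8.7% of all named genes. The median difference of the list was -0.57, beside -0.09 over all named genes. The part of each epithelial cell type in the differences of C3, Hc, C6 and Cd55 was not tested. Of 12 hepatocyte genes, 0 were at least 4-fold higher and 0 lower in 3w+Dox than in Day0 cells, beside 4.34% and 2.88% of all named genes. Only 3 of the 12 in iPS cells, 3 at Day0, 0 at 3w+Dox and 1 in withdrawn cells reached 6.67.

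**Figure D4:**
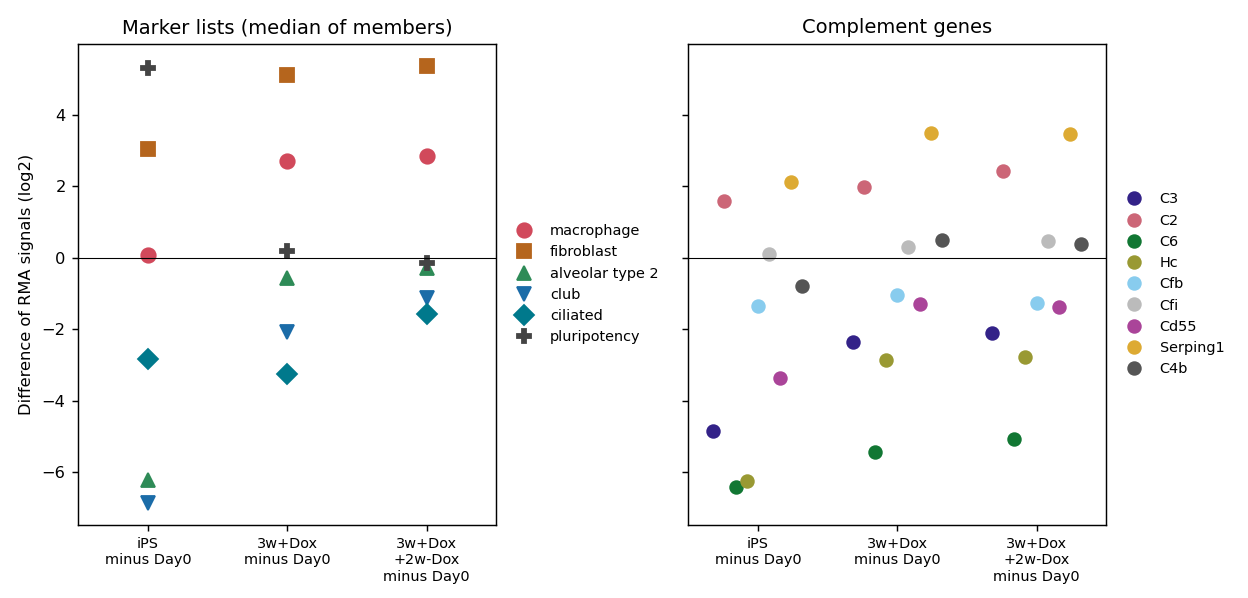
Difference from Day0 (log2) in iPS, 3w+Dox and withdrawn cells, on the left as the median over each marker list and on the right for each of the 9 complement genes. Fibroblast and macrophage lists lie above 0 at 3w+Dox and in withdrawn cells, as Serping1 and C2 do. C4b (0.49 and 0.39) and Cfi (0.31 and 0.46) lie close to 0 on these arrays. Club, ciliated and alveolar type 2 lists lie below 0 on both arrays, as C3, C6, Hc, Cfb and Cd55 do.

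Acute phase genes, which like C3 and Cfb are induced by inflammatory cytokines in many tissues, were mixed. Of 30 acute phase and NF-kB genes, 6 were at least 4-fold higher and 1 lower in 3w+Dox than in Day0 cells, beside 4.34% and 2.88% of all named genes. The median difference of the list was 0.56, beside -0.09 over all named genes. Saa1, an acute phase protein, read 2.74 in iPS cells, 3.03 at Day0, 8.56 at 3w+Dox and 2.71 in withdrawn cells, and the cytokine gene Tnf read 6.71, 6.33, 10.31 and 8.66 in that order. Both were highest at 3w+Dox. The gene that was lower was Hp, which encodes haptoglobin. Hp read 6.22, 13.54, 10.21 and 12.66, so that 73.6% of its difference was undone after withdrawal, against 10.4% for C3. Il6 read 5.46, 5.61, 6.68 and 6.51. A part of inflammatory cytokines in the differences of C3 and Cfb was not tested.

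Interferon, a known inducer of C2, Cfb, C4 and the C1 inhibitor, acts through its own set of response genes. Of 40 such genes, 2 were at least 4-fold higher (Oas2 at 2.35 and Mx1 at 2.29) and 1 lower (Usp18 at -2.50) in 3w+Dox than in Day0 cells. These counts were near the shares of all named genes, 4.34% higher and 2.88% lower. The median difference of the list was -0.01, beside -0.09 over all named genes. Irf1, a transcription factor of this response, read 8.98 in iPS cells, 9.18 at Day0, 8.37 at 3w+Dox and 8.02 in withdrawn cells. A part of interferon in the differences of Serping1 and C2 was not tested.

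Genes with the most similar patterns were found by the Euclidean distance over the 4 log2 signals after each gene's mean was subtracted, among 3930 named genes that varied by at least 2 log2 units. The nearest to C3 were St3gal6, a sialyltransferase (distance 0.17), and Osgin1 (0.26). Cldn8, a tight junction protein, lay near C6 (0.42). Hc was nearest to Gsta3, a glutathione transferase (0.34), and Sfta2, a surfactant-associated gene of alveolar type 2 cells (0.46). Cd55 was nearest to Ccrl2, an atypical chemokine receptor (0.10), and Tns2, a tensin (0.13). Serping1 was nearest to Cercam (0.09) and Dbn1, an actin-binding protein (0.11), and C2 to the adhesion gene Nlgn2 (0.11) and the scaffold gene Homer3 (0.17). With 4 arrays many genes share an order, so these distances only describe the arrays. Cebpb, Cebpd, Il6, Irf1, C4a, C1ra, Cfd and the other terminal components were named above for their known roles or as copies of a member, after their values were seen. For Cfb, Cfi and C4b, which varied by less than 2 log2 units, no neighbour is named.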

How the data were processed

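The deposited table holds 1 log2 signal per probe set and array. Per the submitters' processing notes, the authors used RMA (background correction, quantile normalization over arrays and median polish) with the affy package in R 3.0.2, and values of 1.70 to 13.85 show the log2 scale. Neither probe set definition nor genome build is given in the sources used here. Probe set names are Entrez gene IDs. The platform annotation named 23185 of 25206 probe sets. A further 555, C3 among them, were named here through the gene ID in RefSeq (GRCm38.p6), which gave 23740 named genes, and 1466 were left out.

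Differences of log2 signals were computed for 5 pairs of arrays with Python 3.11.15 and pandas 2.3.3. A gene was counted as higher or lower from 2 log2 units (4-fold), with at least 1 of the arrays at 6.67, the median over the whole table, or more. The code for the calls was run on simulated data with a chosen noise and planted differences larger than the threshold. That run checks the code only and says nothing about the error of these arrays. With 1 array per population, no test was possible, and precision is limited by the number of arrays. The members and lists were chosen with earlier results of these data known. Genes named are all members, complement and neighbouring genes past 4-fold, up to 4 acute phase or interferon genes per comparison, defining markers, and the 2 genes nearest to a member. Alternatives were 2-fold and 8-fold thresholds, 2 other filters, a second quantile normalization, centring, a floor at the 25th percentile and naming by the platform annotation only. Results of some genes that meet the naming rule are not reported here.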

Additional observations from a re-analysis of the deposited data

How the results depend on the processing

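No paired analysis was possible because each population has 1 array and the labels give no replicate numbers, and no array could be left out for the same reason. Counts were taken under 8 other settings, of which naming by the platform annotation only was chosen after seeing the data. Of 144 counts under these settings, 122 stayed within 1.5 times the reported ones. Counts that were 0 and stayed 0 are among the 122, as are falls from 3 to 2, so the number overstates stability. At a 2-fold threshold the complement genes counted were 2 higher and 5 lower in 3w+Dox than in Day0 cells, 5 lower in withdrawn cells than at Day0, and 5 lower in iPS than in 3w+Dox cells. The shares of all named genes were 8.7%, 7.5%, 7.75% and 12.5% in the same order. At 8-fold, 1 was lower in 3w+Dox than in Day0 cells (C6), 1 was higher and 1 lower in withdrawn cells than at Day0, 0 were higher in iPS cells than at Day0, and 1 was lower in iPS than in 3w+Dox cells. With the brighter array at or above the 75th percentile (8.82), 1 complement gene was higher in withdrawn cells than at Day0, since C2 is too dim. Among the lists at 3w+Dox against Day0, the 2-fold threshold gave 6 other complement genes lower, 10 acute phase genes higher and 3 lower, 2 interferon genes lower and 1 chromosome 17 neighbour higher. At 8-fold, 6 other complement genes were higher and 0 lower, 0 interferon genes were higher and 0 lower, and 0 neighbours were lower. At the 75th percentile filter, 1 other complement gene was lower and 0 interferon genes were higher. Of all 23740 named genes at 3w+Dox against Day0, 2066 were higher and 1781 lower at 2-fold, 521 and 257 at 8-fold, and 693 and 432 at that filter. Counts over all named genes at 8-fold and at that filter were taken for this comparison only. Named by the platform annotation only, C3 has no name, and 1000 genes counted as higher and 667 as lower in 3w+Dox than in Day0 cells, against 1031 and 684. Of 175 differences of single complement genes under 4 of these settings, 0 changed sign after having passed 4-fold, and 13 moved by over 0.1 log2 units. Naming by the platform annotation only cannot move a difference, and a floor cannot reverse one. Centring moved none by over 0.05, and the second quantile normalization none by over 0.153. Shifts this small cannot reverse a difference of 2 log2 units, so the 0 changes of sign say little. The largest shift was 0.42, for Hc in iPS cells with values under the 25th percentile raised to it. Signals of C2 at Day0 and of Hc and C6 in iPS cells lie under that percentile, which limits how exact their folds are.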
